A study of Ovis aries with 9 samples.

Results

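The genes described here are those of cholesterol synthesis and handling in the sheep ovary, read from the gene counts of 9 ewes. They were chosen by name, as genes known to build sterols, to regulate that synthesis or to move and store cholesterol inside the cell, and the rule used their names and no threshold on a measured value. The group holds 32 of the 27174 rows of the count table: 5 genes of the mevalonate steps, 3 of the isoprenoid steps, 11 of the sterol steps, 5 regulators and 8 handling genes. All 32 had a row and all 32 passed the expression filter. The rows of 25 genes were found by symbol. TM7SF2, NPC1, NPC2 and APOE were found by gene number in a reference table of the assembly ARS-UI_Ramb_v3.0, LIPE under its synonym HSL, SC5D under its older name SC5DL, and CYP51A1 as a locus that the study's tables describe as lanosterol 14-alpha demethylase-like. LIPA, STARD4 and GGPS1 each have another row with a numeric suffix, and for each the row with the most reads was used. Only 61 reads of LIPA, 24 of STARD4 and 11 of GGPS1 lay on the row left aside.

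Cells make cholesterol from acetyl-CoA. The mevalonate steps yield an activated isoprene unit, the isoprenoid steps join such units into farnesyl diphosphate, and the sterol steps fold 2 farnesyl units, joined as squalene, into lanosterol and trim it to cholesterol. The pathway is regulated as a unit: when membrane sterol falls, the escort protein SCAP carries the SREBP transcription factors out of the endoplasmic reticulum, and when sterol is plentiful the INSIG proteins hold SCAP back. In the ovary cholesterol is also the raw material of steroid hormones, and granulosa, theca and luteal cells obtain it from lipoproteins, from stored esters and from their own synthesis.

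The study compared whole ovaries of 3 Dorset ewes (D4, D5 and D6), a breed of low fecundity whose genotype the labels give as wild type, with ovaries of the prolific Small Tail Han breed. Of the Han ewes, 3 were homozygous for the FecB mutation of the BMP receptor BMPR1B (FecBBFecBB, called Han BB: W1, W2 and W4) and 3 did not carry it (FecB+ FecB+, called Han ++: W6, W7 and W8). All ewes were adults whose cycles had been synchronized with a progestagen sponge and gonadotropin, and they were killed soon after the next spontaneous estrus, with ovulation points on the ovaries by the labels. Each ewe gave 1 library. By the labels, Han BB and Dorset differ in breed and in FecB genotype at once, Han ++ and Dorset in breed, and Han BB and Han ++ in FecB genotype within the breed. In whole ovary, fewer cells of a type and less RNA per cell cannot be told apart.

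Between 10803913 (W8) and 20992535 (W7) reads were counted per library, and a single row took 14.9% of the reads of D4 and 7.69% of those of W8. The libraries were spread along the first principal component, which held 41.3% of the variance. At its low end W4 and D6 lay together at -107 and -103, away from the next library, W7, at -32.4. At its high end D4 lay at 118 and W8 at 74.9, and D4 held the highest level of 10 of the 32 genes. Results that rest on W4 and D6, which pair a Han BB with a Dorset ewe, are given with and without them, and each library, D4 included, was also left out singly. Levels are counts scaled to library size (CPM, by the TMM method), given per gene and not compared between genes of different length. A gene was called changed where edgeR's quasi-likelihood F-test gave an adjusted p under 0.05 and the fold exceeded 1.5 in either direction.

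No cholesterol gene was called in any comparison. The share of all 16871 tested genes that was called was 0% for Han BB against Dorset, 0.00593% for Han ++ against Dorset, 0% for Han BB against Han ++ and 0% for both Han groups against Dorset, so the threshold was passed by almost no gene of any kind in edgeR. DESeq2 and limma called none of the 32 genes either. DESeq2 called 0.243%, 0.405%, 0.0119% and 0.531% of the tested genes in the same order of comparisons, and limma 0%, 0%, 0.0119% and 0%. edgeR found, at an unadjusted p under 0.05, 2 of the 32 genes lower and 0 higher in Han BB than in Dorset, where 2.89% of all tested genes were lower and 2.1% higher. The genes were LSS and IDI1. In Han ++ against Dorset 2 genes, IDI1 and FDFT1, were lower and 0 higher, against 2.66% lower and 2.61% higher among all genes. In Han BB against Han ++ 3 genes, SCAP, DHCR7 and TM7SF2, were lower and 0 higher, against 1.09% and 0.877%. With both Han groups set against Dorset, IDI1, LSS and FDFT1 were lower and 0 genes higher, against 3.5% and 2.63%. DESeq2 gave 2, 2, 3 and 3 genes at this level in the same 4 comparisons, where 6.26%, 6.21%, 2.5% and 7.25% of all tested genes stood at it. limma gave 3, 4, 3 and 3 genes, against 11.5%, 9.78%, 7.26% and 11.3% of all tested genes. For the comparisons of each Han group with Dorset, the share of the 32 genes lay near the background in edgeR, DESeq2 and limma. For edgeR, lower and higher genes were added for this reading. For both Han groups against Dorset, the share lay somewhat above the background in edgeR and DESeq2 and somewhat below it in limma. Between the Han groups, it lay above the background in edgeR and DESeq2, and less so in limma, on 3 genes in each tool. Unadjusted p values below are edgeR's unless another tool is named. The 3 comparisons with Dorset share the Dorset libraries, so their lists are not independent of each other.

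**Figure D1:**
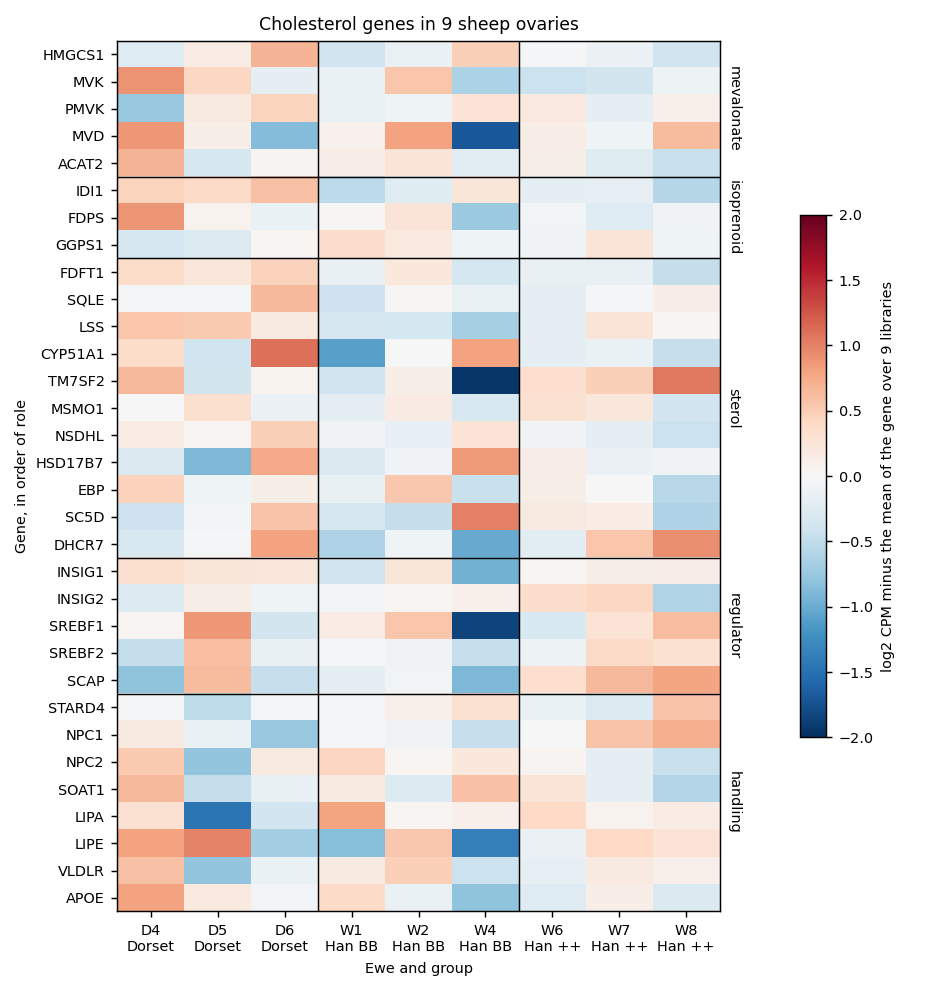
Levels of the 32 genes in the 9 ovaries, each as log2 CPM minus the mean of that gene over the 9 libraries (color), with genes in rows by role and ewes in columns by group. IDI1 and FDFT1 are above their means in all 3 Dorset ewes, and W4 holds the lowest level of 11 of the 32 genes.

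The synthesis genes as a group lay slightly lower in the Han ovaries. Han BB against Dorset gave 16 of the 19 synthesis genes a log2 fold change below 0 and 3 above 0, with a median of -0.21. For Han ++ against Dorset the split was 14 below and 5 above with a median of -0.30, and for both Han groups together 17 below and 2 above with a median of -0.25. The medians over all tested genes in these 3 comparisons were -0.0058, -0.06 and -0.04. Of the 16871 tested genes, 8533, 9435 and 9190 lay below 0 in the same order, and 9006 lay above 0 in Han BB against Han ++. In Han BB against Han ++ the direction turned: 12 synthesis genes lay above 0 and 7 below, with a median of 0.15 against 0.04 over all genes. That sign did not hold without W4, with a median of -0.10, nor in limma with all libraries, also at -0.10. With W4 and D6 both left out the medians against Dorset were -0.20 for Han BB, -0.28 for Han ++ and -0.17 for both together, and the median between the Han groups was -0.10. These medians and counts describe the list and carry no test.

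The CPM summed over the 19 synthesis genes was 1071, 899.1 and 1201 in D4, D5 and D6. It was 710, 908.5 and 932.4 in W1, W2 and W4, and 835.2, 812.4 and 718.5 in W6, W7 and W8. All Han ++ sums lay below the lowest Dorset sum, while W2 and W4 lay above it. The sum weighs the genes with most reads, such as HMGCS1, CYP51A1 and FDFT1. Expression in the highest library exceeded that in the lowest by a median of 2.45 times over the 32 genes and 3.00 times over all tested genes. The ratio was above 3 for 12 of the 32 genes. The 2 medians were not matched for read number, so the smaller one is not read as a trait of these genes.

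Among the mevalonate genes, which turn acetyl-CoA into isopentenyl diphosphate, none reached an unadjusted p under 0.05 in a pairwise comparison by edgeR with all libraries. HMGCS1 makes HMG-CoA, ACAT2 the acetoacetyl-CoA it starts from, MVK and PMVK phosphorylate mevalonate and MVD decarboxylates the product. All 5 log2 fold changes were below 0 in Han BB against Dorset (median -0.15, range -0.43 to -0.02). For Han ++ against Dorset 4 of 5 were below 0 (median -0.36), with the lowest value for MVK at -0.74 ± 0.39 (SE) and an unadjusted p of 0.0848. MVK stood at 17.7, 12.6 and 8.32 CPM in D4, D5 and D6 and between 7.01 and 8.84 CPM in the Han ++ ewes. D4 and D5 thus lay above every Han ++ ewe and D6 among them. limma gave MVK a p of 0.0485 in that comparison, and without W4 and D6 the groups did not overlap and edgeR gave -0.97 with an unadjusted p of 0.0104 and an adjusted p of 0.369. MVD varied most in this class, from 9.43 CPM in W4 to 56.2 CPM in D4.

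IDI1 converts isopentenyl diphosphate to its reactive isomer dimethylallyl diphosphate, and FDPS joins the isomers to farnesyl diphosphate. IDI1 was at 111, 106 and 122 CPM in the Dorset ewes D4, D5 and D6, at 56.7, 68.3 and 96.3 CPM in the Han BB ewes W1, W2 and W4, and at 72.0, 72.6 and 54.9 CPM in the Han ++ ewes W6, W7 and W8. Every Dorset ewe lay above every Han ewe, and W4 came nearest to them. The log2 fold change of IDI1 was -0.61 ± 0.27 (SE) in Han BB against Dorset, with an unadjusted p of 0.0447 and an adjusted p of 0.975 in edgeR. In refits of edgeR without single libraries, the unadjusted p was under 0.05 only without W4, at 0.0107, and without both W4 and D6 the log2 fold change was -0.80. Against Dorset, Han ++ gave -0.76 ± 0.27 on that scale, with an unadjusted p of 0.0171 and an adjusted p of 0.836, and the p exceeded 0.05 without W8 (0.0935) and without D6. For both Han groups together the log2 fold change was -0.69 ± 0.23 (unadjusted p = 0.0119, adjusted p = 0.613 in edgeR), the lowest p of the 32 genes in that comparison. Without W4 and D6 it was -0.75 (unadjusted p = 0.00594, adjusted p = 0.31), and that p exceeded 0.05 only without W1 or without D6 (0.0505) among the libraries left out singly.

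FDPS had log2 fold changes of -0.44 (Han BB) and -0.47 (Han ++) against Dorset, with overlapping groups and a single high value of 155.5 CPM in D4. Without W4 and D6 the Han ++ value was -0.65 (unadjusted p = 0.0357 in edgeR, adjusted p = 0.512). GGPS1, which extends farnesyl to geranylgeranyl diphosphate for protein prenylation and so leads away from sterols, went the other way. It was at 12.6, 13.1 and 16.4 CPM in D4, D5 and D6, at 20.3, 18.1 and 14.9 CPM in W1, W2 and W4, and at 15.1, 19.0 and 15.0 CPM in W6, W7 and W8. The groups overlapped through D6 and W4. Its log2 fold change in Han BB against Dorset was 0.34 ± 0.27 (unadjusted p = 0.225, adjusted p = 0.996 in edgeR), and 0.57 without W4 and D6.

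The sterol steps begin with FDFT1, squalene synthase, the enzyme that commits farnesyl diphosphate to sterols. FDFT1 was at 138, 125 and 147 CPM in D4, D5 and D6, at 96.6, 123 and 83.6 CPM in W1, W2 and W4, and at 96.3, 95.9 and 76.6 CPM in W6, W7 and W8. As for IDI1, all Dorset values lay above all Han values, though W2 at 123 CPM was close to D5 at 125 CPM. The log2 fold change was -0.61 ± 0.25 (SE) in Han ++ against Dorset, with an unadjusted p of 0.0358 and an adjusted p of 0.898 in edgeR. In refits of edgeR without single libraries the p was under 0.05 for 3 of the 9, exceeded it without W1, W6, W7, W8, D4 or D6, and was highest, at 0.154, without W8. Between Han BB and Dorset the log2 fold change was -0.44 ± 0.25 (unadjusted p = 0.115, adjusted p = 0.985 in edgeR), and -0.26 without W4 and D6. For both Han groups together the value was -0.52 ± 0.22 (unadjusted p = 0.0343, adjusted p = 0.755 in edgeR), and the p stayed under 0.05 for 2 of the 9 libraries left out, W2 and D5.

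LSS, lanosterol synthase, closes the rings and makes the first sterol of the pathway. It was at 22.4, 21.9 and 17.3 CPM in the Dorset ewes D4, D5 and D6, at 12.1, 12.0 and 9.57 CPM in the Han BB ewes W1, W2 and W4, and at 13.3, 18.2 and 15.6 CPM in the Han ++ ewes W6, W7 and W8. All Han BB values lay below all values of both other groups, and the Han ++ values lay between, with W7 above D6. Against Dorset, the Han BB log2 fold change was -0.87 ± 0.27 (SE), a fold of 0.546, with an unadjusted p of 0.00777 and an adjusted p of 0.968 in edgeR. This was the lowest unadjusted p of the 32 genes in any pairwise comparison, and it stayed between 0.00775 and 0.0238 whichever of the 9 libraries was left out. Without W4 and D6 the log2 fold change was -0.89. The difference of Han BB from Han ++ was -0.49 ± 0.27 (unadjusted p = 0.0956, adjusted p = 1.00 in edgeR). With both Han groups against Dorset the log2 fold change was -0.63 ± 0.23 (unadjusted p = 0.0178, adjusted p = 0.66 in edgeR), and the p was over 0.05 without D4 (0.0574) and without D5.

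**Figure D2:**
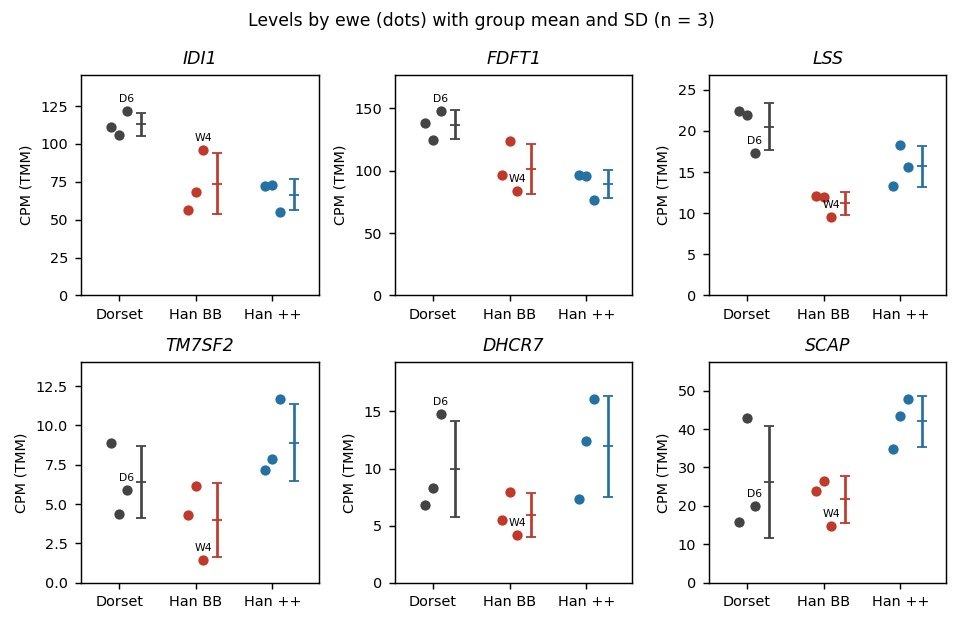
Levels of IDI1, FDFT1, LSS, TM7SF2, DHCR7 and SCAP in CPM (linear axes from 0), with a dot per ewe and, beside the dots, the group mean and SD. For IDI1 and FDFT1 all 3 Dorset dots lie above all Han dots, for LSS all 3 Han BB dots lie below both other groups, and for DHCR7 the groups overlap.

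CYP51A1, the demethylase that acts on lanosterol, spread more widely than most of these genes. It was at 135.5, 79.0 and 224 CPM in D4, D5 and D6, at 49.2, 105 and 182 CPM in W1, W2 and W4, and at 91.9, 95.2 and 75.8 CPM in W6, W7 and W8. The highest values were those of D6 and W4, and the groups overlapped. The log2 fold change in Han ++ against Dorset was -0.74 ± 0.48 (unadjusted p = 0.149, adjusted p = 1.00 in edgeR) and -0.28 without W4 and D6. Between the Han groups (Han BB against Han ++) it was 0.35 ± 0.47 (unadjusted p = 0.469) and turned to -0.20 without these libraries. NSDHL removes a carboxyl group from the intermediates after demethylation. It was at 37.2, 34.4 and 46.5 CPM in D4, D5 and D6, at 31.9, 30.0 and 40.5 CPM in W1, W2 and W4, and at 31.9, 29.3 and 24.9 CPM in W6, W7 and W8. All Han ++ values lay below all Dorset values, with a log2 fold change of -0.46 ± 0.25 (unadjusted p = 0.0981, adjusted p = 1.00 in edgeR). Without W4 and D6 that log2 fold change of NSDHL was -0.32 (unadjusted p = 0.211 in edgeR).

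TM7SF2, a sterol reductase, and DHCR7, the enzyme that converts 7-dehydrocholesterol to cholesterol, had lower levels in Han BB than in Han ++, by unadjusted p values only. TM7SF2 was at 4.32, 6.16 and 1.47 CPM in W1, W2 and W4, at 7.16, 7.87 and 11.7 CPM in W6, W7 and W8, and at 8.86, 4.37 and 5.92 CPM in D4, D5 and D6. The Han BB and Han ++ values did not overlap, and the Dorset values lay across both. Its log2 fold change in Han BB against Han ++ was -1.16 ± 0.50 (SE), a fold of 0.449, with an unadjusted p of 0.0426 and an adjusted p of 1.00 in edgeR. DHCR7 was at 5.51, 7.99 and 4.21 CPM in W1, W2 and W4, at 7.30, 12.4 and 16.1 CPM in W6, W7 and W8, and at 6.81, 8.34 and 14.7 CPM in D4, D5 and D6. W2 lay above W6, so the Han groups overlapped. The log2 fold change of DHCR7 was -1.015 ± 0.42, with an unadjusted p of 0.0357 and an adjusted p of 1.00 in edgeR.

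TM7SF2 was counted on few reads, between 22 in W4 and 174 in W7. Without W4 and D6 the log2 fold change of TM7SF2 was -0.77 (unadjusted p = 0.0838) and that of DHCR7 -0.83 (unadjusted p = 0.0549). Left out singly, W1, W4, W7 and W8 each raised both p values over 0.05. The other sterol genes had overlapping groups and log2 fold changes between -0.40 and 0.28 in the pairwise comparisons. They were SQLE, which oxidizes squalene, MSMO1, HSD17B7, EBP and SC5D, which act between lanosterol and the last steps. SQLE was at 40.8 to 85.2 CPM, and its highest value was that of D6.

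Among the regulators, the lowest unadjusted p was that of SCAP, the escort of the SREBP proteins. SCAP was at 24.0, 26.5 and 14.85 CPM in the Han BB ewes W1, W2 and W4, at 34.7, 43.3 and 47.9 CPM in the Han ++ ewes W6, W7 and W8, and at 15.9, 42.9 and 19.9 CPM in the Dorset ewes D4, D5 and D6. The Han BB and Han ++ values did not overlap, and among the Dorset ewes D5 stood with Han ++ and the other two below W1. The log2 fold change of SCAP in Han BB against Han ++ was -0.95 ± 0.39 (SE), a fold of 0.519, with an unadjusted p of 0.0338 and an adjusted p of 1.00 in edgeR. That p ranged from 0.00996 to 0.0981 as single libraries were left out, was under 0.05 for 5 of the 9 (not without W1, W4, W7 or W8), and was 0.0821 without W4 and D6. Han ++ against Dorset placed SCAP at 0.67 ± 0.39 on the log2 scale (unadjusted p = 0.111), a value that was 1.22 without D5, where its p fell under 0.05, 0.41 without D4 and 0.42 in limma.

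INSIG1, itself a gene that SREBP switches on, was at 38.2, 36.3 and 35.6 CPM in D4, D5 and D6, at 23.3, 36.2 and 15.9 CPM in W1, W2 and W4, and at 31.5, 33.3 and 33.3 CPM in W6, W7 and W8. The Dorset and Han ++ values were tight and did not overlap, yet they were close together, with a log2 fold change of -0.17 ± 0.30 in Han ++ against Dorset (unadjusted p = 0.593). For Han BB against Dorset INSIG1 was at -0.55 ± 0.30 on the log2 scale (unadjusted p = 0.0984, adjusted p = 0.98 in edgeR), with W2 inside the Dorset range. SREBF2, which encodes the SREBP most tied to sterol genes, was at 68.7 to 145 CPM with all groups overlapping, and SREBF1, tied more to fatty acid genes, at 5.08 CPM in W4 and 14.1 to 33.4 CPM in the other 8 ewes. All 5 regulators had a log2 fold change below 0 in Han BB against Han ++ (median -0.38), and 4 of 5 in Han BB against Dorset (median -0.27), but 2 of 5 in Han ++ against Dorset (median 0.14). INSIG2 lay between 5.53 and 11.2 CPM, with log2 fold changes of at most 0.20 in size.

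**Figure D3:**
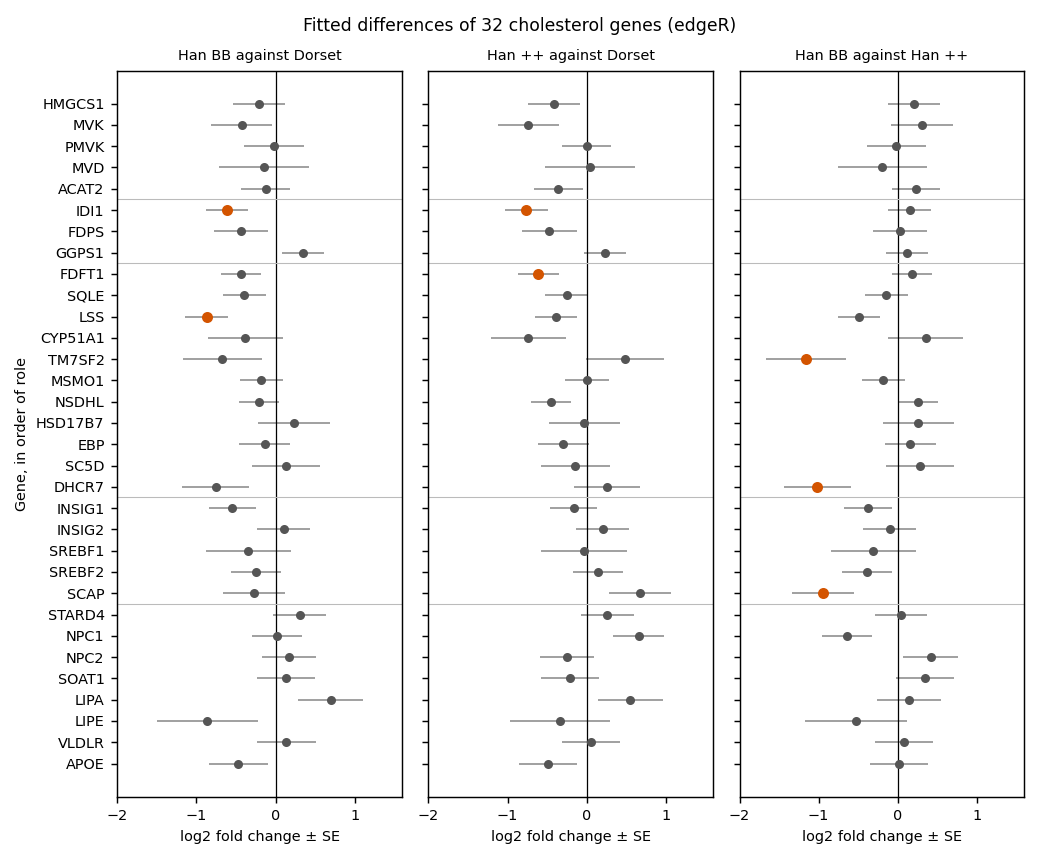
Fitted log2 fold changes (dots) with standard errors (lines) of the 32 genes in the 3 pairwise comparisons, ordered by role, with orange dots for an unadjusted p under 0.05. None had an adjusted p under 0.05. Orange dots lie left of 0 in all 3 panels, at IDI1 and LSS, at IDI1 and FDFT1, and at TM7SF2, DHCR7 and SCAP.

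The handling genes were spread around 0, with median log2 fold changes of 0.13 in Han BB against Dorset, -0.08 in Han ++ against Dorset and 0.06 in Han BB against Han ++, and none reached an unadjusted p under 0.05 by edgeR with all libraries. NPC1 and NPC2 together export cholesterol from lysosomes. NPC1 was at 26.8, 25.8 and 19.7 CPM in W1, W2 and W4, at 26.9, 40.5 and 45.1 CPM in W6, W7 and W8, and at 30.7, 24.7 and 16.1 CPM in D4, D5 and D6. The Han BB values lay below those of Han ++, with W1 and W6 nearly equal, and the log2 fold change was -0.64 ± 0.32 in Han BB against Han ++ (unadjusted p = 0.069) and 0.66 ± 0.32 in Han ++ against Dorset (unadjusted p = 0.0632). The first p fell under 0.05 without W6 and without D6, and the second without W6 and without D4. With both W4 and D6 left out, NPC1 was at -0.52 in Han BB against Han ++ (unadjusted p = 0.089 in edgeR). It was then at 0.44 in Han ++ against Dorset (unadjusted p = 0.141 in edgeR). NPC2 was at 216, 165 and 185 CPM in W1, W2 and W4, at 166, 141 and 118.5 CPM in W6, W7 and W8, and at 232, 92.8 and 182 CPM in D4, D5 and D6. Its groups overlapped, with a log2 fold change of 0.41 ± 0.34 in Han BB against Han ++ (unadjusted p = 0.252), opposite in sign to that of NPC1.

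LIPA, the lysosomal acid lipase that frees cholesterol from lipoprotein esters, had the highest log2 fold change in Han BB against Dorset. It was at 148, 43.8 and 92.1 CPM in D4, D5 and D6, at 207.5, 124 and 128 CPM in W1, W2 and W4, and at 158, 126 and 132.5 CPM in W6, W7 and W8. D5 was low and D4 lay among the Han ewes, and the log2 fold change was 0.69 ± 0.41 (unadjusted p = 0.117, adjusted p = 0.987 in edgeR). It was 1.17 without D4, where its p fell under 0.05, 0.36 without D5 and 0.45 without W1. limma gave LIPA 1.31 in Han BB against Dorset (unadjusted p = 0.00421) and 1.06 in Han ++ against Dorset (unadjusted p = 0.0113). LIPE, the hormone-sensitive lipase that opens stored esters, was counted on few reads, between 12 in W4 and 91 in D5. It was at 3.60, 4.10 and 1.29 CPM in D4, D5 and D6, at 1.14, 3.01 and 0.803 CPM in W1, W2 and W4, and at 1.91, 2.71 and 2.49 CPM in W6, W7 and W8. The groups overlapped, and the log2 fold change in Han BB against Dorset was -0.86 ± 0.64 (unadjusted p = 0.208). It was -1.60 without W2, where its p fell under 0.05, -0.55 without W4 and -0.54 without D5.

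The remaining handling genes were SOAT1, which esterifies cholesterol for storage, STARD4, a soluble sterol carrier, VLDLR, a lipoprotein receptor, and APOE, its ligand on lipoprotein particles. APOE was highest in D4 at 849 CPM and lowest in W4 at 278 CPM, and its log2 fold changes against Dorset were -0.47 in Han BB and -0.49 in Han ++. The log2 fold changes of SOAT1, STARD4 and VLDLR lay between -0.21 and 0.34 in the pairwise comparisons, with overlapping groups.

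Counted over all 32 genes, 3 had Han BB values wholly below the Dorset values (FDFT1, IDI1 and LSS) and 0 wholly above, against 4.52% and 4.27% of all tested genes. Han ++ against Dorset had 4 genes wholly below (FDFT1, IDI1, INSIG1 and NSDHL) and 0 above, against 5.59% and 5.47%. Han BB against Han ++ had 4 genes wholly below (LSS, NPC1, SCAP and TM7SF2) and 0 above, against 4.59% and 4.78%. Without W4 and D6, which leaves groups that separate more easily, the counts were 6 below and 2 above (Han BB and Dorset), 9 below and 2 above (Han ++ and Dorset), and 4 below and 4 above (Han BB and Han ++). The shares of all tested genes were then 16.8% below and 17.1% above, 12.4% and 12.1%, and 13.1% and 14.6%.

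W4 and D6 were on the same side of the other 7 ewes for 9 of the 32 genes, though they belong to different groups. HMGCS1, PMVK, CYP51A1, NSDHL, HSD17B7 and SC5D were higher in both than in any other ewe, 18.8% of the 32 genes (6 genes), as were 18.6% of all tested genes. W4 held 68.8 CPM of SC5D and D6 50.9 CPM, while the others held 22.4 to 39.0 CPM. HSD17B7 was at 16.1 and 15.0 CPM, against 4.78 to 9.83 CPM. MVD, SREBF1 and NPC1 were lower in both than in any other ewe, 9.38% of the 32 genes against 17.2% of all tested genes, and MVD stood at 9.43 CPM (W4) and 16.8 CPM (D6) where the others ranged from 28.8 to 56.2 CPM. These genes were named for this pattern after their values had been seen.

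**Figure D4:**
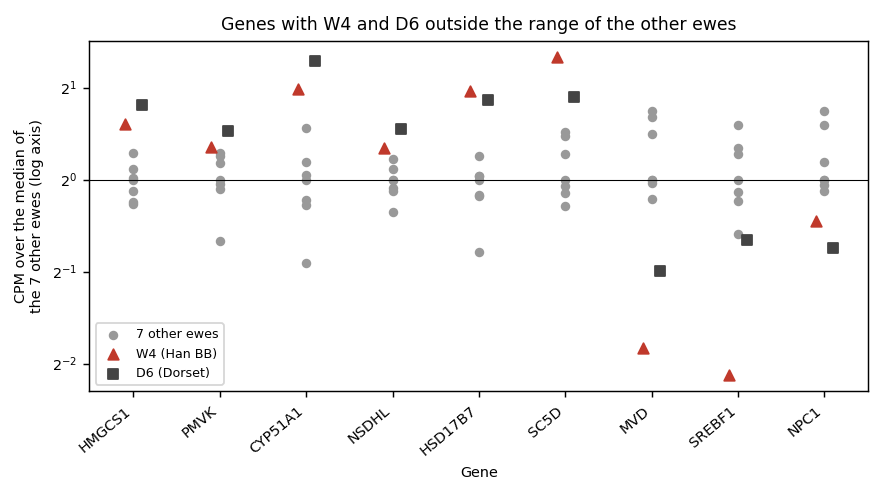
CPM of 9 genes in each ewe divided by the median of the 7 ewes other than W4 and D6 (log axis), with triangles for W4, squares for D6 and gray dots for the others. The 6 genes on the left are higher in W4 and D6 than in the other 7 ewes, and MVD, SREBF1 and NPC1 on the right are lower.

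The synthesis genes followed each other only in part from ewe to ewe. Over the 9 libraries, the Pearson correlation of each synthesis gene with the mean log2 CPM of the other synthesis genes had a median of 0.34 and ran from -0.35 for GGPS1 to 0.80 for FDFT1. It was above 0.7 for 2 of the 19 genes, FDFT1 and SQLE, and below 0 for 4. Without W4 and D6 the median was 0.41. These values are a description: the libraries share depth, cell makeup and the split of W4 and D6, and no p is given.

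Other genes of the pathway were taken from a list of 41 genes that act around the 32, of which 40 had a row and were tested. None was called. At an unadjusted p under 0.05, 1 was higher (ABCG1) and 1 lower (LRP8) in Han BB than in Dorset. Among all tested genes, 2.1% were higher and 2.89% lower. In Han ++ against Dorset 1 was higher (ABCG1) and 0 lower, against 2.61% and 2.66% of all tested genes. In Han BB against Han ++ 0 stood at that level, against 0.877% higher and 1.09% lower. ABCG1, an exporter that hands cholesterol to lipoproteins and is switched on when sterol is plentiful, was at 26.1, 30.9 and 24.5 CPM in D4, D5 and D6, at 39.5, 56.7 and 31.8 CPM in W1, W2 and W4, and at 58.5, 58.0 and 42.2 CPM in W6, W7 and W8. All Han values lay above all Dorset values. Its log2 fold change was 0.96 ± 0.29 (SE) in Han ++ against Dorset (unadjusted p = 0.00631, adjusted p = 0.684 in edgeR) and 0.65 ± 0.28 in Han BB against Dorset (unadjusted p = 0.0429, adjusted p = 0.975). These values were 0.89 and 0.74 without W4 and D6. ABCA1, another exporter, named after its values were seen, was at 0.31 ± 0.32 in Han ++ and 0.57 ± 0.32 in Han BB against Dorset, with overlapping groups. Other genes of the list went the other way, among them MYLIP at -0.42 (Han ++) and -0.25 (Han BB) against Dorset. Of the 40 genes, 17 lay above 0 and 23 below in Han ++ against Dorset, and 20 above and 20 below in Han BB against Dorset.

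LRP8, a receptor for APOE, was at 22.4, 37.3 and 28.65 CPM in D4, D5 and D6, at 7.55, 17.2 and 20.2 CPM in W1, W2 and W4, and at 12.4, 21.7 and 25.8 CPM in W6, W7 and W8. The Han BB values lay below the Dorset values, and the log2 fold change was -0.98 ± 0.41 (unadjusted p = 0.0366, adjusted p = 0.975 in edgeR). Of the 11 fatty acid genes that SREBP1 is known to switch on, 10 were tested and none was called. Han BB against Dorset gave 8 below 0 and 2 above (median -0.34), and FADS1, a desaturase, had an unadjusted p of 0.0251 at -0.68 ± 0.26. DESeq2 placed 4 of the genes under 0.05 there and limma 3, against 6.26% and 11.5% of all tested genes. The split was also 8 below and 2 above in Han ++ against Dorset (median -0.15). In Han BB against Han ++ it was 9 below and 1 above (median -0.23). In these last comparisons no tool placed a gene under 0.05.

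Marker genes of several ovarian cell types also differed in level between ewes. The CPM summed over 7 luteal and steroidogenic markers (of 8 on the list) ran from 350.6 to 1836 in Dorset, while Han BB spanned 402.4 to 1796 and Han ++ 879.7 to 1547, and no marker of the 7 had an unadjusted p under 0.05 in a pairwise comparison by edgeR or DESeq2, while limma placed 2, 3 and 1 there (Han BB and Dorset, Han ++ and Dorset, the Han groups). STAR, which feeds cholesterol to the mitochondrion, was at 19.7 CPM in D5 and 47.4 CPM in W8, and at 128 to 213 CPM in the other ewes. None of the granulosa markers was called, but all 8 had a log2 fold change below 0 in Han BB against Dorset (median -1.115) and against Han ++ (median -0.68), with overlapping sums of 178 to 363 CPM in Dorset, 95.2 (W1) to 243 CPM in Han BB and 137.5 to 354 CPM in Han ++. At an unadjusted p under 0.05 by edgeR stood FST against Dorset (-1.12 ± 0.44) and HSD17B1 against Han ++ (-2.31 ± 1.04). DESeq2 placed 3 and limma 4 of the markers there in Han BB against Dorset, and each placed 1 in Han BB against Han ++. Han ++ against Dorset gave 3 markers above 0 and 5 below (median -0.05). There limma placed 1 at that level, and edgeR and DESeq2 none. No granulosa marker was at 0, but HSD17B1 lay near the floor in Han BB, at 3.37, 0.28 and 0.0669 CPM in W1, W2 and W4. The last was the lowest level of these markers, and the fold change of HSD17B1 rests on such low values. AMH was also low, at 0.33 to 2.4 CPM over all ewes, with every Han BB value below those of both other groups. The part of the granulosa markers in the lower LSS, IDI1, TM7SF2, DHCR7 and SCAP of Han BB was not tested.

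The 4 theca markers summed to 85.3 to 186 CPM in Dorset, 41.5 (W4) to 125 CPM in Han BB and 50.95 to 123 CPM in Han ++, with none at an unadjusted p under 0.05 by edgeR and 1 in each pairwise comparison by limma. Smooth muscle markers summed to 4310 to 9480 CPM in Dorset, against 4621 to 6807 CPM (Han BB) and 4864 to 7824 CPM (Han ++), and 5 of the 6 lay below 0 in both Han groups against Dorset, LMOD1 with the lowest p (0.00666 and 0.00235). Macrophage markers (9 of 10 with a row) summed to 417 to 1281 CPM, 619 to 927 CPM and 564 to 739 CPM in the same order. Of the 9, 6 lay above 0 and 3 below in Han BB against Dorset (median 0.24), and 4 above and 5 below in Han ++ against Dorset (median -0.20). MSR1, a scavenger receptor and the macrophage gene with the lowest p, had log2 fold changes against Dorset of 1.18 ± 0.48 in Han BB (unadjusted p = 0.0323) and 1.25 ± 0.48 in Han ++ (unadjusted p = 0.0257). Ciliated epithelium markers (8 of 10 with a row) summed to 93.1 to 242 CPM, 130 to 539 CPM and 225 to 340 CPM, and ROPN1L among them was the gene called in Han ++ against Dorset (2.71 ± 0.31, adjusted p = 0.0446 in edgeR). Of the 8, 7 lay above 0 and 1 below in Han BB against Dorset (median 0.94). All 8 lay above 0 in Han ++ against Dorset (median 1.43), 4 of them at an unadjusted p under 0.05 by edgeR. Han BB against Han ++ gave 2 above 0 and 6 below (median -0.42). Adipocyte markers summed to 56.1 to 60.0 CPM, 56.1 to 79.7 CPM and 62.4 to 107 CPM. Of the 6 tested, 3 lay above 0 in Han BB against Dorset (median -0.05) and 2 in Han ++ against Dorset (median -0.10). FABP4 was at 2.50 ± 0.94 in Han ++ against Dorset (unadjusted p = 0.0226), with W8 alone at 73.2 CPM. The part of these cells in the lower IDI1 and FDFT1 and the higher ABCG1 of the Han ewes was not tested. The 3 globin genes on a list of blood markers had no row under those names.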

How the data were processed

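Ovary RNA of 9 ewes was measured by RNA-Seq, 1 library per ewe. The authors aligned the reads to the sheep genome Oar_v3.1 with TopHat, retained reads with a unique alignment, and deposited the resulting gene counts unnormalized. How reads were counted, and with which strand setting, is not given in the sources used here, and the library kit is given in 2 ways, so genes that overlap or share copies are uncertain. Of the 27174 rows, 3076 carry a numeric suffix whose meaning is not stated. 0 columns were left unmapped to a sample.

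Counts were fitted in R 4.3.3 with edgeR 4.0.16 (quasi-likelihood F-test, 1 fit of all 9 libraries, TMM, expression filter by group), with Benjamini-Hochberg adjustment over 16871 rows. The thresholds are those of the study's methods, which used DESeq. The standard error is the log2 fold change divided by the square root of F. Precision was limited by the spread between 3 ewes a group (common biological coefficient of variation over all tested genes 0.472). log2 CPM used a prior count of 0.5. The p values set each group difference against the spread between these ewes, estimated with information shared across genes.

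The alternatives were DESeq2 size factors, DESeq2 1.42.0, limma 3.58.1 voom with quality weights, no filter, at least 1 CPM in 3 libraries, the compared groups only, no fold threshold, each library left out, and W4 and D6 left out. The count of groups that do not overlap without W4 and D6 was added after seeing the data. The fits were tested on simulated data. Genes given with values in every library had an unadjusted p under 0.05 or groups that did not overlap in a pairwise comparison, or the 2 highest or 2 lowest log2 fold changes of a comparison. The genes and lists were chosen with earlier results of these data known. No set test was run, and sequences and positions were not used here. Python 3.11.15 with matplotlib 3.10.9 drew the plots.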

Additional observations from a re-analysis of the deposited data

How the results depend on the processing

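The count of cholesterol genes called was 0 in each of the 4 comparisons under all 17 alternatives tried. As no gene passed the threshold in any setting, only a change of sign was counted for single genes, whatever the change in size. Of the log2 fold changes recomputed for genes given in full, 365 kept their sign and 3 did not. The exceptions were those of CYP51A1 in Han BB against Han ++, which turned from 0.35 to -0.33 in limma, -0.20 without W4 and -0.20 without W4 and D6, within a range of -0.20 to 0.71 as single libraries were left out. The median of the synthesis genes in Han BB against Dorset ran from -0.45 (without W2) to -0.15 as single libraries were left out. In Han ++ against Dorset it was -0.13 in limma, and in Han BB against Han ++ it was -0.10 in limma, -0.10 without W4 and D6, and -0.10 to 0.23 with single libraries left out. The cause was not tested. LIPA (Han BB against Dorset) ran from 0.36 to 1.31 and SCAP (Han ++ against Dorset) from 0.41 to 1.22 over the alternatives. The number of genes at an unadjusted p under 0.05 ran from 1 to 3 (Han BB against Dorset), 0 to 4 (Han ++ against Dorset), 0 to 4 (between the Han groups) and 1 to 5 (all Han ewes against Dorset). It stayed near its main value in 40 of the recomputed counts and moved away from it in 24. LIPE and TM7SF2 had few reads, which limits their precision. No paired analysis was possible because the ewes of different groups share no number that the labels tie to a litter, batch or day.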
